A study of Homo sapiens with 9 samples.

Results

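The mitochondrial ribosomal proteins were taken as every protein-coding gene of the count table whose symbol is MRPL or MRPS followed by a number and at most 1 letter. This gave 78 of 31558 entries, 48 named for the large subunit and 30 for the small subunit. They stand for 77 symbols, because MRPS17 appears in 2 entries, and lie on 21 chromosomes. RNA was sequenced from HCT116, a human colorectal carcinoma cell line, in 3 groups of 3 biological replicates. CRLM1-OE cells overexpress the long noncoding RNA CRLM1, Ctrl cells carry the free plasmid, and Anti cells carry the antisense sequence of CRLM1. The sequenced cells are described as transfected, and the methods also describe stable expression of CRLM1 from a lentiviral vector (pTSB-GFP-puro), without saying which applies to these samples. They do not say whether each line was 1 pool or 1 clone, or how far the replicate cultures were separate, so the p values below measure the spread between these samples, which may be technical.

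The mitochondrial ribosome translates the mRNAs of the mitochondrial genome, all of which encode subunits of the oxidative phosphorylation complexes. Its rRNAs come from mitochondrial DNA, whereas all of its proteins are encoded in the nucleus, made in the cytosol and imported. The small subunit reads the mRNA, and the large subunit holds the peptidyl transferase centre and the exit tunnel, through which new proteins reach the inner membrane. Names do not always match positions. MRPS18A and MRPS30 are now placed in the large subunit, and MRPS36 is now regarded as a component of the α-ketoglutarate dehydrogenase complex. The split used here is by name.

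The labels were checked on CRLM1, which had 38704, 32751 and 35726 counts in CRLM1-OE, 0 in each Ctrl sample and 1951, 1777 and 1540 in Anti. Total counts per sample ranged from 33302292 to 44514692. Of the epithelial markers EPCAM, KRT8, KRT18, KRT19, CDH1 and VIL1, VIL1 was at or near 0 (at most 0.03 FPKM) in all groups. The 6 had a summed FPKM from 4846 to 4980 in CRLM1-OE, compared with 5517 to 5556 in Ctrl and 4569 to 4624 in Anti. FPKM values are read counts corrected for gene length and library size. The summed FPKM of the fibroblast markers was at most 2.5, that of the leukocyte markers at most 2.04 and that of the endothelial markers at most 0.11.

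How the libraries are scaled decides the sign of small changes, so it comes first. CRLM1-OE against Ctrl, the median log2 fold change of 11084 protein-coding genes averaging 100 counts or more was -0.05 with TMM factors (edgeR's trimmed mean of M-values) and 0.09 with total counts. The median of the 78 members moved with it, from -0.07 to 0.08. The distance of the members' median from that of the protein-coding genes did not depend on the scaling. It was -0.02 for CRLM1-OE against Ctrl, 0.07 for CRLM1-OE against Anti and -0.13 for Anti against Ctrl. TMM values are used below, and a change that passed the test in the same direction with TMM factors, RLE factors (the size factors of DESeq2) and total counts is said to have held under 3 scalings.

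**Figure D1:**
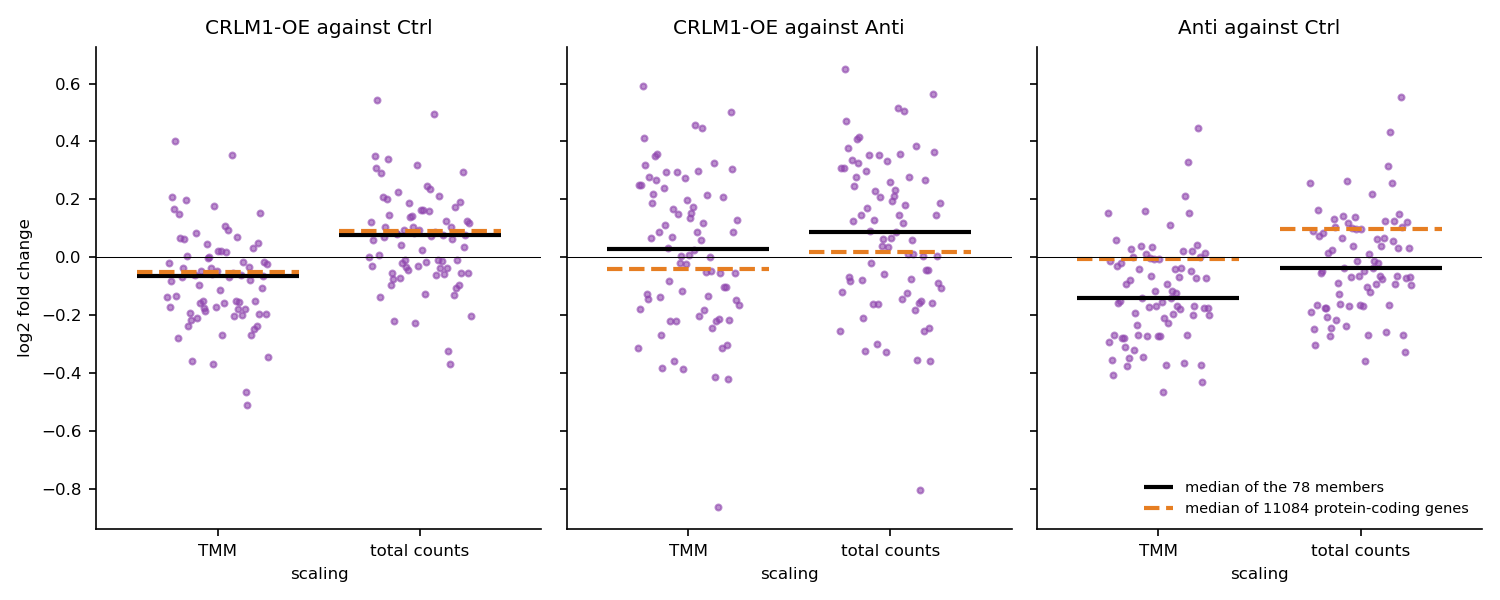
Log2 fold change of each of the 78 members (dots, spread sideways only for visibility) in the 3 comparisons, with TMM factors and with total counts. The solid line is the members' median and the dashed line the median of 11084 protein-coding genes; against Ctrl the members' median in CRLM1-OE lies at -0.07 with TMM factors and at 0.08 with total counts, beside the dashed line both times.

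The promoters of 12 members are shown because these genes were the ones that stood above both other groups, or below both, in CRLM1-OE cells under all scalings, and that had an entry in the RefSeq promoter table. Each line gives 100 bases before to 30 bases after the RefSeq start on GRCh38.p14, from 5′ to 3′ on the strand of the gene. Capitals mark matches, on either strand, to 1 of 4 motifs: GCGCA, any base, then GCGC (NRF1-type), CCGGAAGT (ETS-type), AAGATGGC (YY1-type) and GGGCGG (SP1-type). Members above both:
MRPL18 (chr6:159789712-159789841, forward strand): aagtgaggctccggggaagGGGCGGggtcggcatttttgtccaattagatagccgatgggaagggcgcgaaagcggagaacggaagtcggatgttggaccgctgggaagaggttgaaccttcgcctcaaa
MRPL22 (chr5:154940973-154941102, forward strand): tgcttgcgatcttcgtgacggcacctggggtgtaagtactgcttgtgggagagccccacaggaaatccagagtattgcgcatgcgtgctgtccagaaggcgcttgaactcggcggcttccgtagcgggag
MRPL24 (chr1:156741059-156741188, reverse strand): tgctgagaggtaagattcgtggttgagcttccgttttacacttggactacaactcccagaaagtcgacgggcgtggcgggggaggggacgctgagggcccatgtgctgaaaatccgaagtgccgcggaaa
MRPL28 (chr16:370509-370638, reverse strand): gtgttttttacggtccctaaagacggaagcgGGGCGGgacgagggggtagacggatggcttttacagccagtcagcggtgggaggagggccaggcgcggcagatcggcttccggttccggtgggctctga
MRPL33 (chr2:27771619-27771748, forward strand): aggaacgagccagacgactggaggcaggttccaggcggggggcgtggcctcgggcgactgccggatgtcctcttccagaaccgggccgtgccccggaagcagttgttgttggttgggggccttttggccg
MRPS34 (chr16:1773105-1773234, reverse strand): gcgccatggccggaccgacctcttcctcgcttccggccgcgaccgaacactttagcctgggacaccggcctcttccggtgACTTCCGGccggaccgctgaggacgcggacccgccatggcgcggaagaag
Members below both:
MRPL19 (chr2:75646683-75646812, forward strand): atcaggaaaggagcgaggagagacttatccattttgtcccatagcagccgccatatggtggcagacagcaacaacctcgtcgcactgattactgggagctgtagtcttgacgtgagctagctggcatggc
MRPL30 (chr2:99181084-99181213, forward strand): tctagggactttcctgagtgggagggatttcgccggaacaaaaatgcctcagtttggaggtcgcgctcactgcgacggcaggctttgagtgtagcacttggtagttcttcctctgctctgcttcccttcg
MRPL42 (chr12:93467414-93467543, forward strand): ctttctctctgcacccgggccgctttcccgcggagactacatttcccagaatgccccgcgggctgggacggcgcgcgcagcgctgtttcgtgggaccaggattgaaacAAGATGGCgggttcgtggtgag
MRPL45 (chr17:38297068-38297197, forward strand): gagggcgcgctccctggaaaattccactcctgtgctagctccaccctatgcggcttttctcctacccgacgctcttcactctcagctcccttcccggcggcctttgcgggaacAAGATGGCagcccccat
MRPL54 (chr19:3762582-3762711, forward strand): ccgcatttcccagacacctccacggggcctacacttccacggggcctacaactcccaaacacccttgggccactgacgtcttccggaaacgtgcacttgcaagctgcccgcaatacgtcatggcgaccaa
MRPS18A (chr6:43687762-43687891, reverse strand): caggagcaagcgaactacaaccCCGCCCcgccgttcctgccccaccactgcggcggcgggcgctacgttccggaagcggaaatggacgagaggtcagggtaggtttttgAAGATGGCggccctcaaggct

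Over the whole RefSeq window of 300 bases (250 before to 50 after the start), 68 of the 77 symbols had a promoter. MRPL2, MRPL10, MRPL13, MRPL15, MRPL21, MRPL23, MRPL35, MRPS28 and MRPS36 were not matched. The YY1-type letters were found in 20 of 68 members (29.4%) and in 619 of 15842 protein-coding promoters (3.91%). Of their 21 matches in members, 15 begin after the start site. ETS-type letters were found in 11 of 68 members, against 6.19% of all promoters, NRF1-type letters in 8 (11.8%, against 8.57%) and SP1-type letters in 41 (60.3%, against 58.5%). No matches of different motifs overlapped in the members. Among the 12 promoters shown, YY1-type letters occur in 3 of the 6 members that were lower (MRPL42, MRPL45 and MRPS18A) and in 1 of the 6 that were higher (MRPL22, downstream of the printed stretch). NRF1-type letters occur in 2 of the lower members (MRPL30 and MRPL45, upstream of the printed stretch) and in 0 of the higher ones. SP1-type letters occur in 4 of the higher members (MRPL18, MRPL24, MRPL28 and MRPS34) and in 2 of the lower ones (MRPL45 and MRPS18A). ETS-type letters occur in MRPS34 alone. A match describes the letters only.

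In Ctrl, the members of 1 ribosome were far from equal in mRNA level. By FPKM, which allows for length, large-subunit members ranged from 2.11 (MRPL50) to 171 (MRPL12), with a median of 31.3. Small-subunit members with 1 symbol each ranged from 1.06 (MRPS17) to 101 (MRPS24), with a median of 27.7. MRPL12, which binds the ribosome as part of the flexible stalk, stood at 171 ± 1.29 (SD, n = 3), followed by MRPL54 at 92.7 ± 1.90 and MRPL24, a protein near the exit tunnel, at 82.5 ± 2.59. The gap between MRPL12 and MRPL54 exceeds their spread. The exons of MRPL12 share 701 nt with another entry on the same strand. The lowest in the large subunit were MRPL35 (4.61 ± 0.268), MRPL42 (3.46 ± 0.0961) and MRPL50 (2.11 ± 0.0950).

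In the small subunit, MRPS24, the uS3 protein of the mRNA entry side, was highest at 101 ± 5.31 FPKM in Ctrl. Its exons share 606 nt with URGCP-MRPS24 on the same strand. MRPS34 followed at 90.5 ± 0.962 and MRPS18B at 88.6 ± 1.06. These last 2 were close, but the lowest Ctrl sample of MRPS34 (89.65) lay above the highest of MRPS18B (89.27). The lowest were MRPS31 (5.15 ± 0.326), MRPS11 (5.00 ± 0.0473) and MRPS17 (1.06 ± 0.231). MRPS31 and MRPS11 did not differ beyond their spread. The order depends on the gene model: MRPL42 has a canonical transcript of 15557 nt, and the ratio of its CPM to its FPKM implies a length of 18.2 kb. Replicates agreed closely, with a median coefficient of variation of 2.93% in the large and 3.23% in the small subunit.

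**Figure D2:**
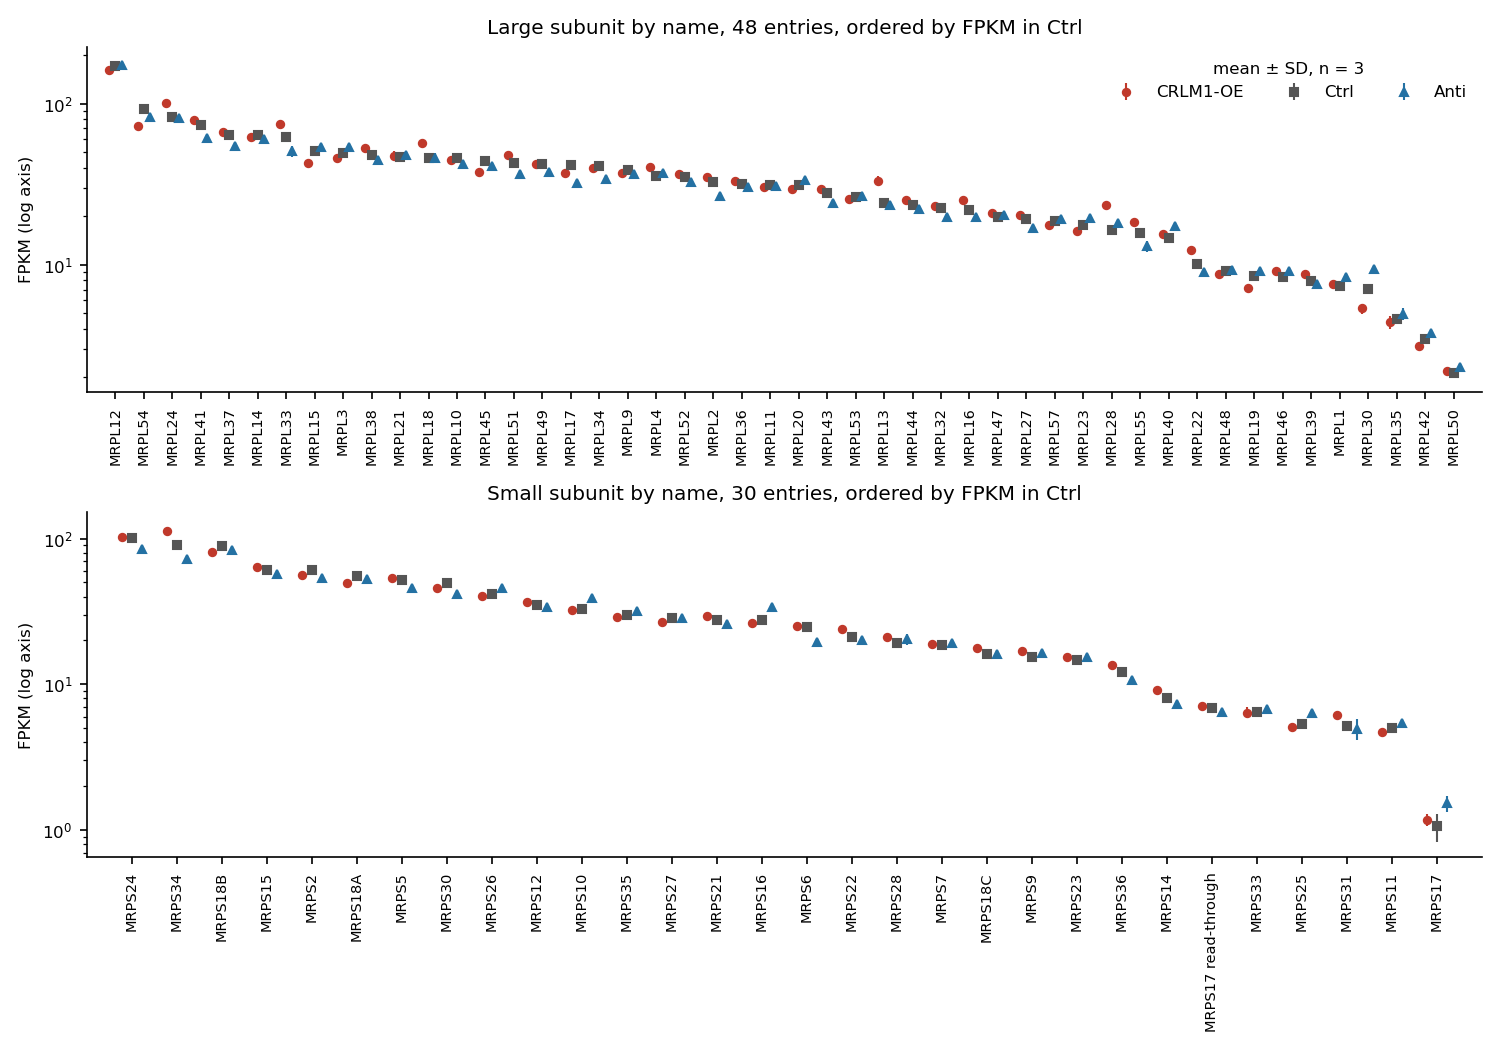
Mean FPKM ± SD (n = 3, log axis) of every member in CRLM1-OE, Ctrl and Anti, ordered by the level in Ctrl. In Ctrl the large subunit runs from 171 (MRPL12) to 2.11 (MRPL50) and the small subunit from 101 (MRPS24) to 1.06 (MRPS17), and the groups lie close together at nearly every gene.

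MRPS17 needs a caution of its own. Its own entry held 76 to 133 counts in the 9 samples, and was the only member with a mean count under 100. The second entry with its symbol (ENSG00000249773.3) is annotated as a read-through gene that overlaps MRPS17 and held 442 to 616 counts. How reads were divided between these 2 entries is not given, so the level of MRPS17 is uncertain.

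As a whole, the members took 0.467% ± 0.00263 of all counts in CRLM1-OE, compared with 0.452% ± 0.00305 in Ctrl and 0.438% ± 0.000666 in Anti (SD, n = 3). The summed FPKM gave the same order, at 2698 ± 14.3, 2642 ± 15.7 and 2500 ± 12.4. With TMM factors the summed CPM (counts scaled to the size of the library) were instead highest in Ctrl, at 4755 ± 40.9, against 4454 ± 24.2 in CRLM1-OE and 4358 ± 26.0 in Anti. Anti was lowest on each scale, whereas the order of CRLM1-OE and Ctrl turned with the scaling. In bulk RNA, a change in the RNA per cell cannot be told from a change in the share of cells that carry it. The ratio of large to small in summed FPKM was 1.76, 1.74 and 1.75 in the CRLM1-OE samples, compared with 1.73, 1.74 and 1.76 in Ctrl and 1.76, 1.77 and 1.73 in Anti, so the groups overlapped. In summed counts, which are not corrected for length, the ratio was 1.628, 1.614 and 1.595 in the CRLM1-OE samples, 1.584, 1.586 and 1.617 in Ctrl and 1.558, 1.575 and 1.549 in Anti, where each Anti sample lay below all others.

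The comparison of CRLM1-OE with Ctrl asks what overexpression of the RNA changes relative to the empty vector. No member changed 2-fold, beside 2.5% of all genes tested that rose and 0.915% that fell by at least that much. Among 29846 genes tested, 15% were higher and 16.8% were lower at an adjusted p of at most 0.05. Of the 78 members, 7 were higher (6 large, 1 small) and 35 were lower (21 large, 14 small), and 36 did not pass. Among the 11084 protein-coding genes averaging 100 counts or more, which are closer to the members in level, 28.9% were higher and 39.8% were lower. With total counts the split of the members turned to 29 higher and 10 lower. Under all 3 scalings 7 members were higher and 10 were lower, beside 15% and 9.89% of all genes tested and 28.9% and 23.1% of the protein-coding genes.

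Against Anti, which carries the antisense sequence, members moved both ways. Of the 78, 32 were higher (21 large, 11 small) and 26 were lower (15 large, 11 small), beside 17.1% and 18.5% of 30183 genes tested. Under all 3 scalings 32 were higher and 22 were lower, beside 17.1% and 15.9% of all genes tested and 33.7% and 35.2% of the protein-coding genes. The median log2 fold change was 0.04 in the large and 0.02 in the small subunit, and that of the small subunit came to -0.01 without replicate 1 of Anti and 0.05 without replicate 2 of Anti. No member changed 2-fold here either, beside 3.09% of all genes that rose and 2.56% that fell by at least that much. Both comparisons use the same CRLM1-OE samples, so they are not independent of each other.

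**Figure D3:**
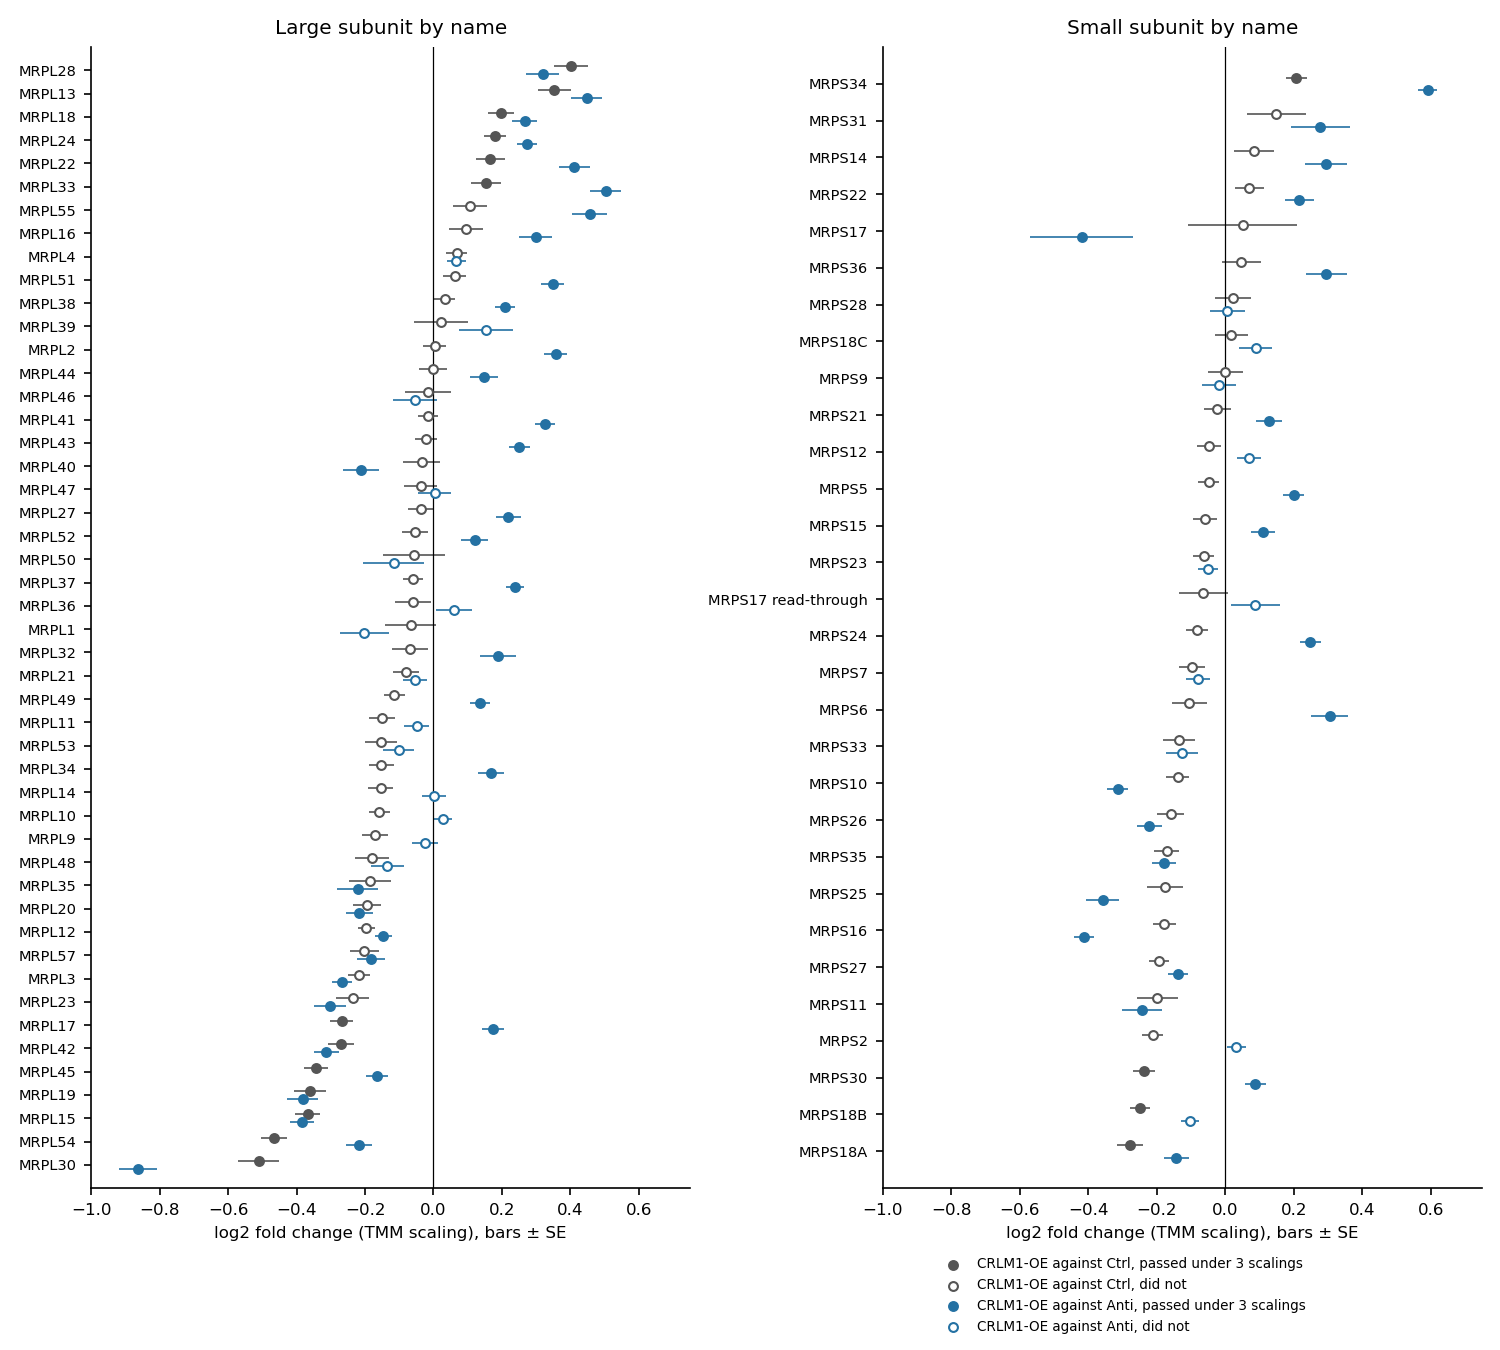
Log2 fold change ± SE of every member for CRLM1-OE against Ctrl (grey) and against Anti (blue), by subunit name and ordered by the change against Ctrl. Filled points held under 3 scalings; MRPL28 (0.40 and 0.32) and MRPL30 (-0.51 and -0.86) lie at the ends of the large subunit.

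In CRLM1-OE, 7 members stood above both other groups under all 3 scalings: MRPL13, MRPL18, MRPL22, MRPL24, MRPL28, MRPL33 and MRPS34. For comparison, 11% of all genes tested and 22.5% of the protein-coding genes did so. MRPL28, the bL28 protein, had 32.2, 33.6 and 35.2 CPM (TMM-scaled, as in the values that follow) in the CRLM1-OE samples. It had 25.1, 24.9 and 26.6 in Ctrl and 26.9, 27.5 and 26.7 in Anti. The CRLM1-OE samples lay above all 6 others, with a log2 fold change of 0.40 ± 0.050 (SE, adjusted p = 1.4e-14) against Ctrl and 0.32 ± 0.048 (adjusted p = 2.7e-10) against Anti. Its exons share 223 nt with PGAP6 on the same strand.

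MRPL13, the uL13 protein, had 36.7, 41.0 and 40.7 CPM in CRLM1-OE, compared with 30.1, 30.7 and 31.9 in Ctrl and 29.0, 28.6 and 29.3 in Anti. No CRLM1-OE sample overlapped another group, and the log2 fold change was 0.35 ± 0.047 (adjusted p = 3.5e-13) against Ctrl and 0.45 ± 0.046 (adjusted p = 2.8e-21) against Anti. MRPL18, the uL18 protein, which helps to bind the RNA of the central protuberance, had 61.5, 59.3 and 62.2 in CRLM1-OE, compared with 52.9, 52.4 and 54.4 in Ctrl and 47.4, 55.0 and 50.2 in Anti. Its log2 fold change was 0.20 ± 0.038 (adjusted p = 1.6e-06) and 0.27 ± 0.037 (adjusted p = 4.2e-12), and the Ctrl and Anti samples overlapped.

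MRPL22 and MRPL24 line the peptide exit tunnel. MRPL24 had 101.8, 102.7 and 102.2 CPM in CRLM1-OE, compared with 86.7, 92.3 and 92.4 in Ctrl and 85.4, 83.0 and 85.9 in Anti, a log2 fold change of 0.18 ± 0.032 (adjusted p = 1.2e-07) and 0.27 ± 0.030 (adjusted p = 4e-19). MRPL22 had 43.5, 46.0 and 42.6 in CRLM1-OE, compared with 39.1, 39.3 and 39.4 in Ctrl and 32.0, 35.0 and 32.5 in Anti. Here the 3 groups were separate from each other, with log2 fold changes of 0.17 ± 0.043 (adjusted p = 0.00059) and 0.41 ± 0.044 (adjusted p = 4.2e-20).

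MRPL33 and MRPS34 were ordered in the same way, with CRLM1-OE highest and Anti lowest. MRPS34, a small-subunit protein without a bacterial counterpart, had 126.4, 134.8 and 126.7 CPM in CRLM1-OE, compared with 110.3, 112.4 and 113.2 in Ctrl and 82.8, 86.7 and 88.5 in Anti. Its log2 fold change was 0.21 ± 0.030 (adjusted p = 2.5e-11) against Ctrl and 0.59 ± 0.028 (adjusted p = 3.2e-94) against Anti, the highest of the members in the latter. Its exons share 341 nt with EME2 on the other strand. MRPL33, the bL33 protein, had 39.9, 40.4 and 45.7 in CRLM1-OE, compared with 36.9, 39.0 and 37.6 in Ctrl and 30.8, 31.1 and 27.1 in Anti. Its change against Ctrl (0.15 ± 0.044, adjusted p = 0.0021) rests on replicate 3 of CRLM1-OE, without which it was 0.09 (adjusted p = 0.18). Against Anti it was 0.50 ± 0.045 (adjusted p = 9.9e-28). The exons of MRPL33 share 324 nt with BABAM2 on the same strand.

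Another 7 members stood below both other groups under all 3 scalings: MRPL15, MRPL19, MRPL30, MRPL42, MRPL45, MRPL54 and MRPS18A. The share was 8.32% among all genes tested and 20% among the protein-coding genes. MRPL30, the uL30 protein, had 17.7, 15.6 and 15.7 CPM in CRLM1-OE, compared with 22.8, 23.9 and 23.4 in Ctrl and 28.8, 30.1 and 30.8 in Anti. The 3 groups did not overlap. The log2 fold change was -0.51 ± 0.061 (adjusted p = 5.8e-16) against Ctrl and -0.86 ± 0.056 (adjusted p = 7.3e-52) against Anti, in each case the lowest of the members. Its exons share 944 nt with 2 other entries on the same strand, so part of the reads could belong to those.

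MRPL54, the second most abundant member of the large subunit by FPKM in Ctrl, had 50.4, 47.3 and 51.4 CPM in CRLM1-OE, compared with 68.3, 67.7 and 70.1 in Ctrl and 57.4, 59.4 and 57.3 in Anti. The log2 fold change was -0.46 ± 0.038 (adjusted p = 3.8e-33) against Ctrl and -0.22 ± 0.038 (adjusted p = 3e-08) against Anti. MRPL45, which attaches the ribosome to the inner membrane near the tunnel exit, had 70.5, 71.0 and 69.3 in CRLM1-OE, compared with 89.8, 87.9 and 89.6 in Ctrl and 78.9, 79.9 and 78.0 in Anti. Its log2 fold change was -0.34 ± 0.034 (adjusted p = 7.8e-23) and -0.17 ± 0.033 (adjusted p = 1.9e-06). In both genes Anti lay between CRLM1-OE and Ctrl, without overlap.

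For MRPL15, MRPL19 and MRPL42 the Ctrl and Anti samples overlapped, and CRLM1-OE lay below both. MRPL15, the uL15 protein, had 52.2, 55.5 and 53.1 CPM in CRLM1-OE, compared with 70.0, 68.1 and 69.2 in Ctrl and 71.3, 70.1 and 68.7 in Anti, a log2 fold change of -0.37 ± 0.037 (adjusted p = 1.3e-21) and -0.38 ± 0.035 (adjusted p = 2.1e-26). MRPL19, the bL19 protein, had 29.5, 29.6 and 32.0 in CRLM1-OE, compared with 40.7, 40.1 and 35.9 in Ctrl and 40.1, 40.2 and 38.6 in Anti, with -0.36 ± 0.047 (adjusted p = 1.7e-13) and -0.38 ± 0.045 (adjusted p = 3.6e-16). MRPL42, once assigned to the small subunit, had 54.0, 54.8 and 54.2 in CRLM1-OE, compared with 67.0, 64.3 and 65.1 in Ctrl and 65.7, 67.0 and 70.3 in Anti, with -0.27 ± 0.038 (adjusted p = 6.7e-12) and -0.31 ± 0.036 (adjusted p = 1.3e-17). The exons of MRPL19 share 1745 nt with another entry on the same strand and 132 nt with GCFC2 on the other strand. Those of MRPL42 share 282 nt with RN7SL737P on the same strand.

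MRPS18A had 60.3, 58.5 and 54.0 CPM in CRLM1-OE, compared with 69.3, 69.2 and 71.2 in Ctrl and 63.7, 64.2 and 63.3 in Anti. It is 1 of 3 paralogs of the bacterial S18 protein in humans, and the 3 did not move alike. MRPS18A changed by -0.28 ± 0.037 (adjusted p = 4.2e-13) against Ctrl and -0.14 ± 0.036 (adjusted p = 0.00025) against Anti, where the call was lost without replicate 3 of CRLM1-OE (-0.08, adjusted p = 0.091). MRPS18B changed by -0.25 ± 0.028 (adjusted p = 1.2e-17) and -0.10 ± 0.026 (adjusted p = 0.00034), the latter not under all 3 scalings. MRPS18C stood at 0.02 ± 0.048 (adjusted p = 0.82) and 0.09 ± 0.048 (adjusted p = 0.15). With total counts MRPS18C passed as higher in both comparisons (0.16, adjusted p = 0.0043, and 0.15, adjusted p = 0.0059). The exons of MRPS18A share 705 nt with RSPH9 on the other strand, and those of MRPS18C 1956 nt with ABRAXAS1.

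**Figure D4:**
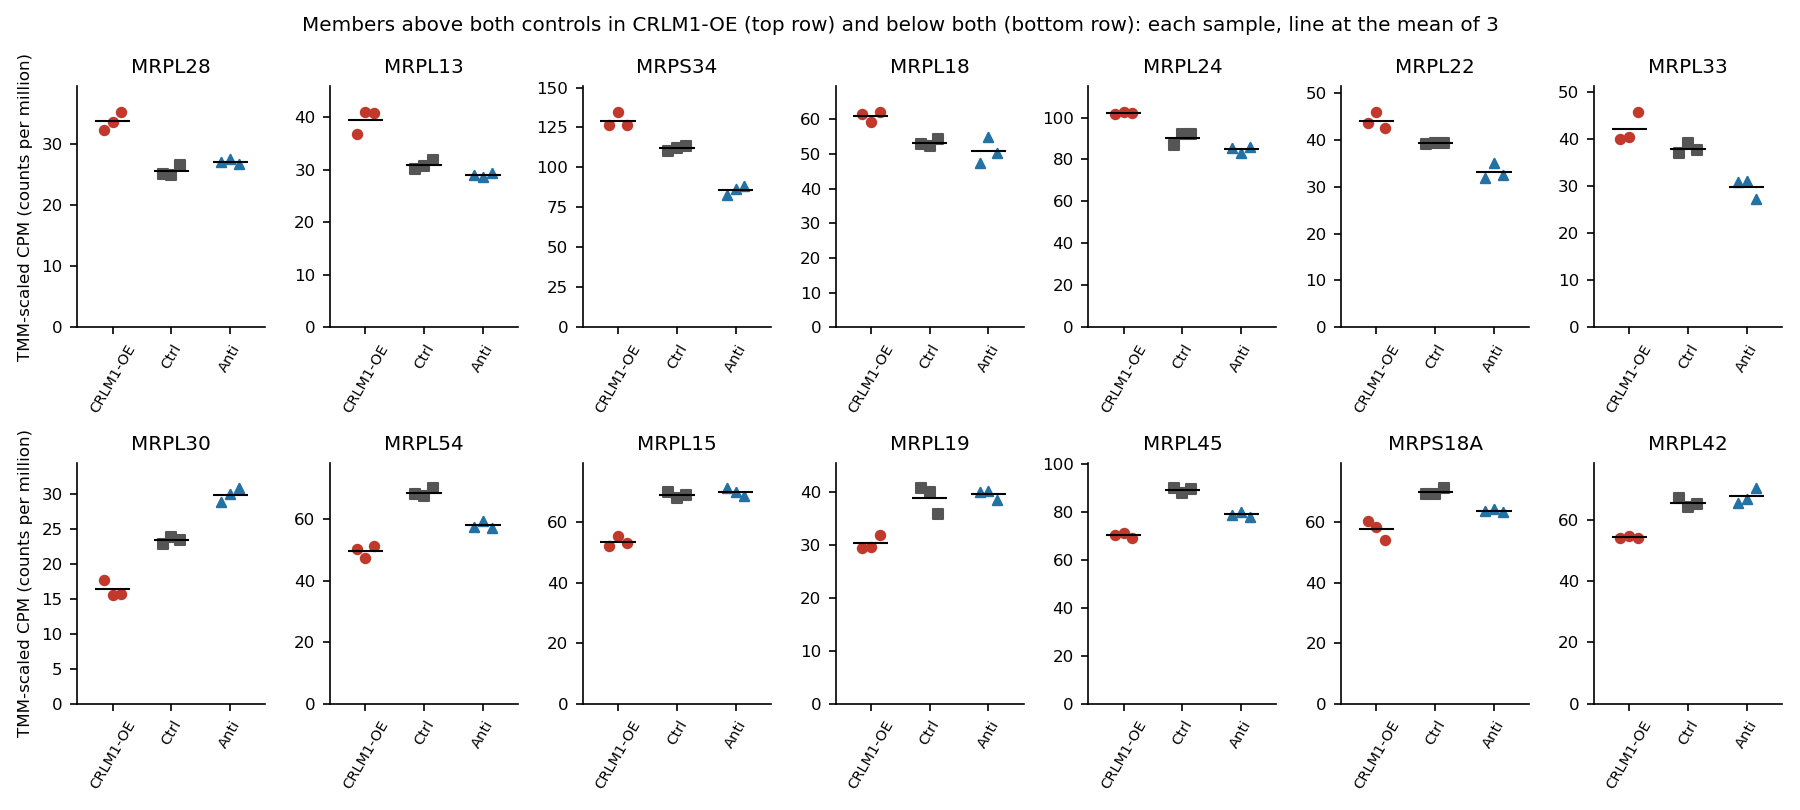
TMM-scaled CPM of the 7 members above both other groups in CRLM1-OE (top) and of the 7 below both (bottom), with each sample as a point and the mean of 3 as a line, on axes that start at 0. In every panel the CRLM1-OE points lie clear of both other groups; in MRPL30 they lie between 15.6 and 17.7, below the Ctrl points from 22.8 to 23.9.

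The members were then read by their place in the ribosome. In the stalk, which recruits the translation factors, MRPL10 (-0.16 ± 0.030, adjusted p = 7.5e-07), MRPL11 (-0.15 ± 0.038, adjusted p = 0.00027) and MRPL12 (-0.20 ± 0.026, adjusted p = 7.7e-13) were lower than in Ctrl on the log2 scale. None of these 3 held with total counts. Against Anti only MRPL12 passed (-0.15 ± 0.024, adjusted p = 4.1e-09), while MRPL10 stood at 0.03 and MRPL11 at -0.05. With total counts MRPL10 passed as higher than Anti (0.09, adjusted p = 0.0051), as it did with both limma fits.

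Around the exit tunnel (7 genes) the members moved both ways. Against Ctrl, MRPL22 and MRPL24 were higher (28.6%) and MRPL17, MRPL23 and MRPL45 were lower (42.9%). These shares were near those of the protein-coding genes, at 28.9% higher and 39.8% lower. Of all genes tested, 15% were higher and 16.8% lower. MRPL23 (-0.24 ± 0.048, adjusted p = 6.3e-06) did not hold with total counts, but it fell against Anti under all scalings (-0.30 ± 0.047, adjusted p = 6.1e-10). MRPL4 stood at 0.07 ± 0.031 (adjusted p = 0.077) and 0.07 ± 0.028 (adjusted p = 0.054). These values lie close to the threshold. With total counts MRPL4 was at 0.21 (adjusted p = 8e-11) against Ctrl and 0.12 (adjusted p = 1.9e-05) against Anti, and it passed in both comparisons with RLE factors, both filters on low counts and both limma fits, and against Anti with DESeq2. Leaving out replicate 1 or 3 of Ctrl brought MRPL4 past the test against Ctrl (0.08 and 0.10), and leaving out replicate 3 of CRLM1-OE or 2 of Anti did so against Anti (0.09 both times). MRPL47 stood at -0.04 and 0.00. MRPL17 was intermediate, with 79.0, 77.7 and 83.6 CPM in CRLM1-OE, compared with 97.3, 98.9 and 93.3 in Ctrl and 67.7, 72.8 and 73.4 in Anti. Of the central protuberance (5 genes), 1 was lower than Ctrl and 0 were higher, and the lower one did not hold with total counts. Against Anti 2 were higher and 2 lower. There 33.7% of the protein-coding genes were higher and 41.1% lower, and 17.1% and 18.5% of all genes tested.

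Other members of known role gave small differences. MRPL3, near the peptidyl transferase centre, was at -0.22 ± 0.032 (adjusted p = 5.8e-11) against Ctrl, which did not hold with total counts, and fell against Anti (-0.27 ± 0.029, adjusted p = 3e-19). MRPL44 was at -0.00 ± 0.041 (adjusted p = 0.98) against Ctrl and at 0.15 ± 0.040 (adjusted p = 0.00093) against Anti, where the call was lost without replicate 1 of CRLM1-OE (0.10, adjusted p = 0.080). In the small subunit, MRPS22 was at 0.07 ± 0.043 (adjusted p = 0.24) and 0.22 ± 0.042 (adjusted p = 1.3e-06). Against Ctrl, MRPS22 passed as higher with total counts (0.21, adjusted p = 4.5e-06). It also passed there with at least 10 counts in every sample (0.10, adjusted p = 0.044) and with both limma fits. MRPS28, the bS1 protein, was at 0.02 ± 0.053 and 0.01 ± 0.052, and MRPS12, the uS12 protein of the decoding site, at -0.05 ± 0.036 and 0.07 ± 0.035, none past the test, although MRPS12 passed against Anti without replicate 3 of CRLM1-OE (0.10) or of Anti (0.09). With total counts MRPS28 passed against Ctrl (0.16, adjusted p = 0.0085) and MRPS12 against Anti (0.13, adjusted p = 0.00057). MRPS28 also passed against Ctrl with both limma fits, and MRPS12 against Anti with both filters on low counts. MRPS7, which binds the 3′ domain of the small rRNA, was at -0.10 ± 0.037 (adjusted p = 0.030) against Ctrl, a call lost without any 1 of 5 libraries, the 3 CRLM1-OE replicates and replicates 2 and 3 of Ctrl (adjusted p from 0.055 to 0.34). MRPS2 was at -0.21 ± 0.031 (adjusted p = 3.9e-11), which did not hold with total counts.

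By origin, and beside 15% of all genes tested that were higher and 16.8% that were lower (28.9% and 39.8% of the protein-coding genes), 6 of 30 large-subunit members with a bacterial homolog were higher and 14 were lower than Ctrl, against 0 and 7 of 18 without one. In the small subunit the counts were 0 and 8 of 18 with a homolog and 1 and 6 of 11 without. Under all 3 scalings the lower members came to 4 of 30 and 3 of 18 in the large subunit and to 2 of 18 and 1 of 11 in the small subunit, while the higher ones stayed at 6, 0, 0 and 1. All 6 higher members of the large subunit have a homolog, but the difference between the classes was not tested. Of 7 genes listed with the ribosome but outside the naming rule, 5 were lower than Ctrl and 0 were higher, and none held with total counts. The list includes OXA1L, which is not itself a ribosomal protein. Among these, GADD45GIP1 was at -0.21 ± 0.030 (adjusted p = 8.5e-12), DAP3, a core protein of the small subunit, at -0.21 ± 0.028 (adjusted p = 2.2e-12) and PTCD3 at -0.18 ± 0.050 (adjusted p = 0.0018).

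Comparing Anti with Ctrl shows how the members differ between the 2 control groups. Anti had 1951, 1777 and 1540 counts on the CRLM1 entry, compared with 0 in each Ctrl sample. Since use of strand is not given, these reads could be sense or antisense. Of the 78 members, 6 were higher and 41 were lower, beside 11.5% and 12.2% of 29714 genes tested. Under all 3 scalings 6 were higher and 24 were lower (17 large, 7 small), beside 11.5% and 6.83% of all genes tested and 25.5% and 16% of the protein-coding genes. No member changed 2-fold, beside 0.683% of all genes that rose and 0.38% that fell by at least that much. The median log2 fold change was -0.13 in the large and -0.15 in the small subunit. With total counts these were -0.03 and -0.04.

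The 4 lowest of each subunit included MRPL17 (-0.46 ± 0.033, adjusted p = 2e-42), MRPS6 (-0.43 ± 0.055, adjusted p = 5.2e-14), MRPS34 (-0.41 ± 0.031, adjusted p = 9.6e-37), MRPL2 (-0.38 ± 0.034, adjusted p = 6.1e-26), MRPL55 (-0.37 ± 0.054, adjusted p = 5.9e-11) and MRPL33 (-0.37 ± 0.048, adjusted p = 1.3e-13). MRPS24 and MRPS30, both at -0.35, complete these 8. Their spread was small beside the change: MRPL2 had 83.4, 82.6 and 86.0 CPM in Ctrl and 65.8, 66.1 and 65.6 in Anti. In MRPL2 the CRLM1-OE samples (83.5, 86.3 and 82.7) overlapped Ctrl.

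The higher ones were MRPS17 (0.45 ± 0.15, adjusted p = 0.014), MRPL30 (0.33 ± 0.053, adjusted p = 8.7e-09), MRPS16 (0.21 ± 0.032, adjusted p = 3.9e-10), MRPS25 (0.16 ± 0.050, adjusted p = 0.0072), MRPL40 (0.15 ± 0.054, adjusted p = 0.021) and MRPS10 (0.15 ± 0.033, adjusted p = 2.5e-05). The call of MRPS17 was lost without replicate 1 of Ctrl (0.29, adjusted p = 0.25) or replicate 2 of Anti (0.36, adjusted p = 0.12), and that of MRPS25 without replicate 1 of Anti (0.12, adjusted p = 0.11). MRPL40 lost its call without any 1 of 4 libraries, replicates 2 and 3 of Ctrl and 1 and 2 of Anti (adjusted p from 0.059 to 0.17).

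Under all 3 scalings, 20 members were lower in Anti than in both other groups (14 large, 6 small), beside 4.84% of all genes tested and 11.6% of the protein-coding genes. Another 6 were higher in Anti than in both (MRPL30, MRPL40, MRPS10, MRPS16, MRPS17 and MRPS25), beside 7.05% and 16.3%. MRPS16, the bS16 protein, had 101.2, 102.1 and 101.7 CPM in Anti, 84.6, 89.3 and 84.9 in Ctrl and 74.3, 77.1 and 77.3 in CRLM1-OE. The CRLM1-OE cells were lower than Anti by -0.41 ± 0.030 (adjusted p = 9.5e-41) in this gene, -0.36 in MRPS25, -0.31 in MRPS10 and -0.21 in MRPL40. They were higher than Anti in MRPL55 (0.46 ± 0.051, adjusted p = 2.8e-18), MRPL2 (0.36), MRPS6 (0.30), MRPS36 (0.30), MRPS14 (0.29) and MRPS24 (0.25). MRPS17 was at -0.42 ± 0.15 (adjusted p = 0.013), a call lost without replicate 2 of CRLM1-OE (-0.37, adjusted p = 0.059) or replicate 2 of Anti (-0.33, adjusted p = 0.12).

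Only MRPL17 and MRPS30 lay between Ctrl and Anti in CRLM1-OE under all 3 scalings, beside 0.179% of all genes tested and 0.469% of the protein-coding genes. No member lay between them in the other order, beside 0.338% and 0.875%. For MRPS30 the values were 80.9, 84.0 and 86.6 CPM in CRLM1-OE, compared with 100.5, 100.8 and 94.9 in Ctrl and 78.0, 78.4 and 80.6 in Anti. Its change against Anti (0.09 ± 0.031, adjusted p = 0.016) was lost without replicate 3 of CRLM1-OE (0.08, adjusted p = 0.072) or replicate 1 of Anti (0.08, adjusted p = 0.081). Its change against Ctrl was -0.24 ± 0.032 (adjusted p = 2.2e-12), and that of MRPL17 was -0.27 ± 0.033 (adjusted p = 2.4e-15) against Ctrl and 0.17 ± 0.032 (adjusted p = 4.6e-07) against Anti.

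Many members share a promoter region with another gene. In GENCODE version 44, 26 of 77 members (33.8%) have the start of a protein-coding gene on the other strand within 1000 bp upstream, compared with 1918 of 20046 protein-coding genes (9.57%). One such pair is formed by 2 members, MRPL46 and MRPS11, whose starts lie 320 bp apart. In CRLM1-OE against Ctrl, MRPS11 fell by 0.20 on the log2 scale (-0.20 ± 0.060, adjusted p = 0.0039, not held with total counts) and MRPL46 stood at -0.02 (adjusted p = 0.90). Over the 25 pairs, both genes passed the test against Ctrl in 8, in the same direction in 4 and in opposite directions in 4. The members of the same-direction pairs were MRPL10, MRPL14, MRPL49 and MRPL57, and none of them held with total counts. How often such pairs pass among all genes was not tested. In CRLM1-OE against Anti both passed in 12 (9 in the same direction, 3 opposite), and in Anti against Ctrl in 11 (8 and 3).

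The 4 pairs that went opposite ways against Ctrl hold MRPL30, MRPL13, MRPL18 and MRPS7. MITD1, which starts 126 bp from MRPL30, was at 0.22 (adjusted p = 0.022) against Ctrl while MRPL30 fell. The call of MITD1 was lost without replicate 2 (0.20, adjusted p = 0.073) or 3 of CRLM1-OE (0.17, adjusted p = 0.17) or replicate 1 of Ctrl (0.13, adjusted p = 0.35). MTBP, 269 bp from MRPL13, was at -0.46 (adjusted p = 0.014), a call lost without replicate 2 of CRLM1-OE (-0.40, adjusted p = 0.064) or replicate 1 of Ctrl (-0.40, adjusted p = 0.086). TCP1, 865 bp from MRPL18, was at -0.19 (adjusted p = 6.9e-14), which did not hold with total counts. GGA3, 273 bp from MRPS7, rose (0.47, adjusted p = 1.2e-29). In some other pairs the partner passed and the member did not. SARS2, the mitochondrial seryl-tRNA synthetase, starts 181 bp from MRPS12 and fell (-0.47, adjusted p = 2.9e-25). TWNK, the mitochondrial DNA helicase listed as C10orf2, starts 46 bp from MRPL43 and rose (0.40, adjusted p = 1.5e-21). The exons of 30 members overlap a gene on the other strand and those of 18 overlap one on the same strand. Whether strand was used in counting is not given, so the reads of such pairs cannot be told apart.

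The rest of the mitochondrial translation pathway moved more than the ribosomal proteins in some genes. Of 28 assembly factors, 5 were higher and 13 lower than Ctrl (median log2 fold change -0.15, or -0.01 with total counts), and 6 were higher and 16 lower than Anti (median -0.18, or -0.12). Under all 3 scalings these were 5 and 10 against Ctrl and 6 and 13 against Anti. The shares among the protein-coding genes, for this list and those that follow, were 28.9% higher and 39.8% lower than Ctrl, and 33.7% and 41.1% against Anti. FASTKD2, an RNA-binding protein needed for the large subunit, was at -0.77 ± 0.080 (adjusted p = 1.1e-20) against Ctrl and -0.86 ± 0.078 (adjusted p = 6.8e-27) against Anti. DDX28, a DEAD-box helicase of large-subunit assembly, was at -0.54 ± 0.088 (adjusted p = 1e-08) and -1.11 ± 0.078 (adjusted p = 1.2e-43), the only 2-fold change in this list.

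Of 15 translation factors, 5 were higher and 8 lower than Ctrl, and 5 were higher and 9 lower than Anti. LRPPRC, which stabilises mitochondrial mRNAs, fell by 0.67 (-0.67 ± 0.031, adjusted p = 1.3e-98) and by 0.93 (-0.93 ± 0.028, adjusted p = 1.8e-234). The elongation factor GUF1 was at -0.64 ± 0.060 and -0.88 ± 0.057, and GFM1, elongation factor G1, at -0.91 ± 0.059 against Anti. Of 20 genes of mitochondrial aminoacyl-tRNA synthesis, 7 were higher and 9 lower than Ctrl. VARS2 (0.74 ± 0.056 and 0.99 ± 0.057), AARS2 (0.71 ± 0.077 and 0.47 ± 0.073) and TARS2 (0.53 ± 0.059 and 0.71 ± 0.059) rose in both comparisons. Each of these changes held under 3 scalings.

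Of the RNAs made in the organelle itself, the rRNAs and mRNAs were examined, and most of these were lower in CRLM1-OE. The 2 rRNAs of the mitochondrial ribosome took 1.16% ± 0.0249 of all counts in CRLM1-OE, compared with 1.49% ± 0.0264 in Ctrl and 1.57% ± 0.0200 in Anti (SD, n = 3). MT-RNR2, the rRNA of the large subunit, changed by -0.52 ± 0.012 against Ctrl and -0.54 ± 0.010 against Anti, and MT-RNR1, that of the small subunit, by -0.31 ± 0.017 and -0.18 ± 0.015, all under 3 scalings. Libraries were made from polyadenylated RNA, so these shares depend on how far the rRNAs were captured, which was not tested. Of 13 mitochondrially encoded mRNAs, 9 were lower and 4 higher than Ctrl (median -0.30, or -0.15 with total counts). Against Anti 10 were lower and 2 higher (median -0.39, or -0.33 with total counts).

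Other nuclear genes gave different patterns again. Of 84 cytosolic ribosomal proteins, 78 were lower and 0 higher than Ctrl (median -0.25), and 64 of these held under 3 scalings, beside 10 of the 78 mitochondrial ones, a difference that was not tested. Anti was below Ctrl as well: of 83 tested, 77 were lower and 3 higher (median -0.20), and 64 and 3 held. The shares among the protein-coding genes there were 29.1% lower and 25.5% higher. CRLM1-OE against Anti, 53 were lower and 8 higher (median -0.07), and 35 and 8 held. Of 86 nuclear genes of oxidative phosphorylation, 18 were higher and 29 lower than Ctrl (median 0.00, or 0.14 with total counts), which became 18 and 5 under all 3 scalings. Against Anti 46 were higher and 10 lower, or 46 and 8 under all 3 scalings. Of 9 regulators of nuclear genes for mitochondrial proteins, 5 were higher and 3 lower than Ctrl, and 3 were higher and 4 lower than Anti. Among them PPARGC1B, a coactivator of nuclear genes for mitochondrial proteins, rose by 0.76 ± 0.066 (adjusted p = 4.1e-29) and 0.66 ± 0.064 (adjusted p = 1.3e-23).

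**Figure D5:**
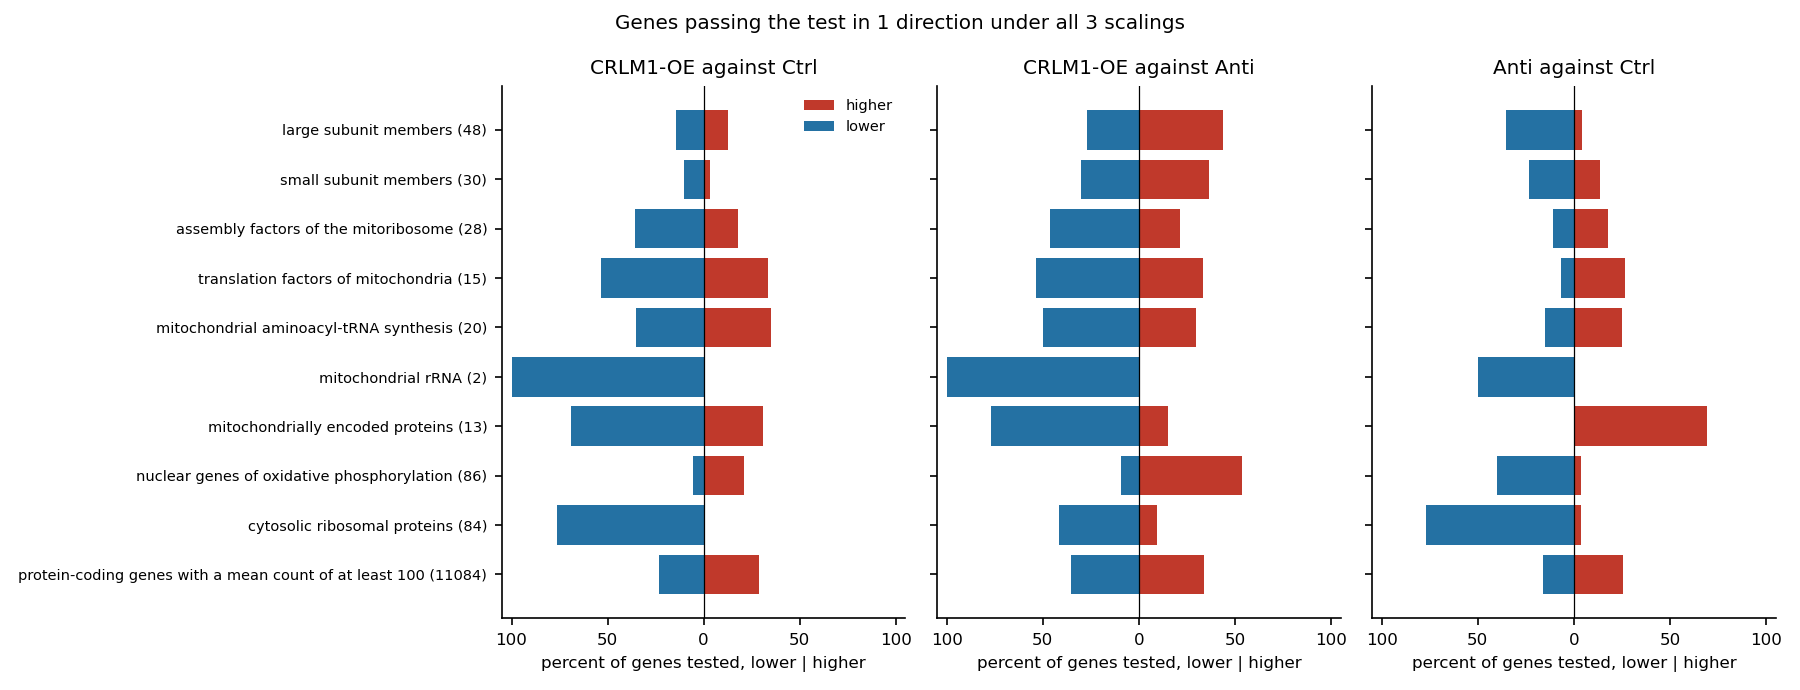
Percent of the tested genes of each list that passed the test under all 3 scalings, lower to the left and higher to the right, in the 3 comparisons, with the number of measured genes in brackets. Against Ctrl, 64 of 84 cytosolic ribosomal proteins were lower in CRLM1-OE, compared with 10 of the 78 mitochondrial ones, which lie below the bar of the protein-coding genes in both directions. In Anti against Ctrl, 64 of 83 cytosolic ones were lower too.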

How the data were processed

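Polyadenylated RNA of 9 HCT116 samples was sequenced as paired-end reads of 151 nt. The authors trimmed reads with the FASTX-Toolkit, used TopHat2 for alignment to GRCh38 with up to 4 mismatches and took genes from Gencode version 23. The authors deposited raw counts of reads that mapped to 1 place, and FPKM. Use of strand and counting of pairs are not given in the sources used here. Total counts were 33302292 to 44514692 per sample. Reads carry no molecular identifiers, and the standard errors rest on the spread between the samples as well as on counting error.

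Groups came from the labels. The quasi-likelihood test of edgeR 4.0.16 (R 4.3.3) with TMM factors was fitted to each pair of groups (6 samples, no covariate), on every gene with at least 1 count. P values are two-sided and Benjamini-Hochberg adjusted over all genes tested, and called at 0.05. The standard error is the fold change over the root of the F statistic, an approximation. With 3 samples against 3, the smallest exact permutation p of any 1 gene would be 0.1. On simulated counts with 200 changed genes (CRLM1-OE against Ctrl, 28351 genes), 66% of changes of 0.25 and 98% of changes of 0.5 on the log2 scale were recovered. Rises and falls were planted in equal number and all other genes left unchanged, so errors of scaling were not simulated. Recovery in the real fit, where many more genes passed, may differ.

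Members were named for the 4 highest and 4 lowest changes per subunit and comparison (mean count of at least 100), the 3 highest and lowest levels in Ctrl, a low count, or a role listed by name, and genes of other lists for the 2 ends of each list, of which only part are named here. MRPL47, divergent neighbours and the promoters shown were chosen after their values were seen. The members and all lists were chosen with earlier results of these data known. One gene is not reported here. Gene positions came from GENCODE version 44. Alternatives were RLE factors, total counts, filterByExpr, at least 10 counts in every sample, DESeq2 1.42.0, limma 3.58.1 on log2(FPKM + 0.1) and log2(FPKM + 1), all 9 samples, the replicate block, each replicate left out and, added after seeing the data, the members' summed counts as library size.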

Additional observations from a re-analysis of the deposited data

How the results depend on the processing

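No member passed a 2-fold threshold, so all 6 counts of members became 0 under it. CRLM1-OE against Ctrl, the count of higher members (7) became 29 with total counts, 12 with at least 10 counts in every sample, 19 with limma on log2(FPKM + 0.1) and with log2(FPKM + 1), and 16 with the members' summed counts as library size. The count of lower members (35) became 10 with total counts, 16 with limma at both pseudocounts and 16 with the members' summed counts. For Anti against Ctrl, the 6 higher members became 16 with total counts, 10 with limma at both pseudocounts and 27 with the members' summed counts, and the 41 lower ones became 24 with total counts, 26 with limma on log2(FPKM + 0.1), 27 on log2(FPKM + 1) and 18 with the members' summed counts. These alternatives differ from the reported fit in how the libraries are scaled or, for the filter, in which genes are tested.

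Leaving out 1 replicate gave 6 to 9 higher and 30 to 34 lower members for CRLM1-OE against Ctrl, 30 to 33 and 22 to 27 for CRLM1-OE against Anti, and 4 to 6 and 36 to 40 for Anti against Ctrl.

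With total counts 26 of 78 members turned sign in CRLM1-OE against Ctrl, 6 in CRLM1-OE against Anti and 18 in Anti against Ctrl, and none of these passed the test under both scalings. Those named in CRLM1-OE against Ctrl include MRPL44, MRPS12 and MRPS7. MRPL44 was at 0.139 with total counts (adjusted p = 0.0029) and MRPS12 at 0.0938 (adjusted p = 0.032), while MRPS7 was at 0.0441 with total counts (adjusted p = 0.43), 0.0171 with limma on log2(FPKM + 0.1) (adjusted p = 0.72) and 0.0163 on log2(FPKM + 1) (adjusted p = 0.71); the cause was not tested. Under total counts 14 of 120 named results lost their call and 11 gained one.

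The labels number replicates 1 to 3 in each group. Deviations of same-numbered samples correlated between -0.0873 and 0.0813 over 12941 genes in 9 pairs, so the numbers were not taken as pairs. With the replicate block as a term the counts stayed at 7 and 35, 32 and 26, and 6 and 41 (higher and lower, in the order of the comparisons above), and none of the 120 named results changed its call.

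Low depth limits only MRPS17 among the members. Its changes lost their calls with DESeq2 and limma as well as when single libraries were left out. Levels in Ctrl set by CPM per kilobase of canonical transcript, a measure added after seeing the data, kept MRPL12 and MRPS24 highest and MRPL50 and MRPS17 lowest (Spearman's rho with FPKM across genes, which are not independent replicates, 0.832 over 48 large-subunit and 0.932 over 29 small-subunit members). Between these ends the order shifted. MRPL41 (189) came second to MRPL12 (207) in the large subunit, ahead of MRPL54 (113). MRPL27 moved from rank 33 to 6, and MRPS5 from rank 7 to 19 in the small subunit.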
